A study of Mus musculus with 6 samples.

Results

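Adult skeletal muscle contraction genes are the 39 genes listed here for the contractile fibre: thick and thin filament proteins of fast and slow fibres, calcium-handling proteins, Z-disc proteins, actin, titin, nebulin and M-band proteins, and enzymes of energy supply. Each was taken as the probe set whose only gene symbol in the array annotation was the listed one and, where a gene had more than 1, the brightest over the 6 arrays. All 39 were found among the 19938 genes measured. Total RNA came from back skin of inbred male BALB/c mice aged 5 to 6 weeks, and levels were read on an Affymetrix mouse gene array. There were 2 arrays each of intact skin, of day 1 wounds and of day 4 wounds, 6 in all. Wounded mice carried 2 full-thickness wounds of 4 mm, cut through the skin and subcutis with the fascia left in place, and an 8 mm punch took the wound with its surroundings. No genotype other than the strain and no drug treatment is named for any group. The labels call the replicates biological but leave unsaid whether each came from a single mouse or from pooled mice, so the p-values measure the spread between these samples.

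Skeletal muscle fibres shorten when myosin heads of the thick filament pull on actin of the thin filament. Troponin on the thin filament opens the binding sites when calcium leaves the sarcoplasmic reticulum. Fast and slow fibres use different genes for myosin heavy and light chains, for the troponin subunits and for myosin-binding protein C. Mouse back skin carries a thin sheet of skeletal muscle, the panniculus carnosus, under the dermis and subcutaneous fat, and a full-thickness skin biopsy can include it. In a biopsy of bulk tissue, more muscle cells and more of these transcripts per muscle cell cannot be told apart, and this holds for every value below.

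The promoters of members that differed between the wound days are shown because these members moved in opposite directions there. Myoz1, which also differed, had no promoter entry and is not shown. The fast-fibre genes Myh4 and Mybpc2 were lower on day 4 than on day 1. The slow-fibre troponin genes Tnni1 and Tnnc1 were higher. None of the calls between the days was kept in every fit that left out 1 array. Sequences are from RefSeq, mouse build GRCm38.p6, 5′ to 3′ on the strand of the gene, from 250 bases before to 50 after the gene start. Myh4 lies at chr11:67237562-67237861 (plus strand), Mybpc2 at chr7:44524620-44524919 (minus), Tnni1 at chr1:135799171-135799470 (plus), Tnnc1 at chr14:31208062-31208361 (plus) and Pvalb at chr15:78206351-78206650 (minus). For Tnni1 and Pvalb the more upstream of 2 entries is shown. Capitals mark matches on either strand to the E-box CAGCTG, the M-CAT element CATTCC, the TATA-box letters TATAAA, the MEF2 element and the CArG box. The MEF2 element was searched in a strict form only, with C at its start and G at its end, so that wider forms with T or A there are not marked.
Myh4: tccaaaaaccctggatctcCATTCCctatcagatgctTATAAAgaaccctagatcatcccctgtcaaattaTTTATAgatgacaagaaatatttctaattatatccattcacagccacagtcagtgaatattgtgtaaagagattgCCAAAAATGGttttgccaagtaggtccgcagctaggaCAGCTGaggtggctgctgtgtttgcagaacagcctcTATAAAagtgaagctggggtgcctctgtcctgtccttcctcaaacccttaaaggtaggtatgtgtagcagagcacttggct
Mybpc2: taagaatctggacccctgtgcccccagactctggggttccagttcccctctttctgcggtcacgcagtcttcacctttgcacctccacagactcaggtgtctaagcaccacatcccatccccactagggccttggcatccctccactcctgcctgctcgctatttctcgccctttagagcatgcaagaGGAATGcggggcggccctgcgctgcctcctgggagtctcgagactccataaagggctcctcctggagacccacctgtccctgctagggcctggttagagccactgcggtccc
Tnni1: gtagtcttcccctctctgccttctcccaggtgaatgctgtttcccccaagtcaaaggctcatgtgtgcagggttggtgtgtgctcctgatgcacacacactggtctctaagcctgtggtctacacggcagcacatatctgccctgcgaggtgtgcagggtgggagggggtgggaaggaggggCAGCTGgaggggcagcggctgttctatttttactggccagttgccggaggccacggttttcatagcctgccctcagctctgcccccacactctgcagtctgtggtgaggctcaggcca
Tnnc1: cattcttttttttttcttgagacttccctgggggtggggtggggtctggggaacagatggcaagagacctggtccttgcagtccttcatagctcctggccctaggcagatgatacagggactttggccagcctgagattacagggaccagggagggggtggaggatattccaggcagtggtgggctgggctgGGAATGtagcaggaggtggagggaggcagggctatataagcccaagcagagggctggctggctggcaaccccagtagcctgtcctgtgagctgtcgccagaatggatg
Pvalb: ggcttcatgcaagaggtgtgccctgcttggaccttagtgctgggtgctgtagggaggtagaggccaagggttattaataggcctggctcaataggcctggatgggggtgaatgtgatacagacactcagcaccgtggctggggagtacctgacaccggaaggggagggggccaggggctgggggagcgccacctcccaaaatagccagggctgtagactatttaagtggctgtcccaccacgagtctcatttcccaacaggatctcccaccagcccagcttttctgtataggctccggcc
The Myh4 promoter held 6 matches, among them CAGCTG 67 bases, a CArG box 104 bases and TATAAA 31 bases before the start. Mybpc2 and Tnnc1 held CATTCC 62 and 58 bases before it, Tnni1 held CAGCTG 68 bases before it, and Pvalb held no match to these forms in this window. Over the 38 promoter entries found for 30 members, CAGCTG stood in 44.7%, against 16.3% of all 32851 entries. CATTCC stood in 28.9% of the member entries against 14.7% of all, TATAAA in 18.4% against 13.6%, the CArG box in 15.8% against 1.63% and the MEF2 element in 5.26% (Myoz2 and Ttn) against 0.557%. The motifs can share bases: some MEF2 elements and CArG boxes contain TATAAA, and the end of one motif can be the beginning of another. A match is a description of the letters and not a bound site.

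Array medians lay between 6.89 and 6.93 log2 units, and the RNA integrity numbers in the labels between 7.7 and 9.1. The summed linear intensity of the members was 38582.5 and 38317.4 in intact skin, 64789.6 and 65482.1 in day 1 wounds and 45725.3 and 55168.3 in day 4 wounds. The day 4 arrays differed from each other: 38 of 39 members were higher on day 4 replicate 2 than on replicate 1, by a median of 0.28 log2 units, against 0.03 over all genes. On day 1 the same difference had a median of 0.02 over the members, and in intact skin −0.02. The wound arrays also differed in hair follicle genes, a list of 12 whose summed intensity was 43491.6 and 44472.6 in intact skin, 8450.8 and 921.2 in day 1 wounds and 18940.9 and 1192.7 in day 4 wounds. The part of hair content in the muscle values was not tested.

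Day 1 wounds were first set against intact skin, to see how the contractile genes stood early after the injury. Of 39 members 28 rose and 0 fell (limma, Benjamini-Hochberg adjusted p under 0.05), where 14.7% of all genes rose and 14.6% fell. At an unadjusted p under 0.05 there were 31 members, of which Tnni1 alone was lower. The share of all genes at that threshold was not taken, so this count has nothing to be set against. The median log2 change over the members was 0.71, a 1.64-fold rise, against −0.04 over all genes. On 33 members both day 1 arrays lay above both intact arrays and on 3 (Myh7, Tnnt1 and Tnni1) below both, where 29% of all genes lay above and 38.2% below. Calcium-handling genes rose in 7 of 7 cases and genes for actin, titin, nebulin and the M-band in 5 of 5. Fast-fibre myofilament genes rose in 7 of 9 cases, Z-disc genes in 5 of 7 and energy genes in 3 of 4, while of 7 slow-fibre myofilament genes Mybpc1 alone rose.

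Day 4 wounds were then set against intact skin, to see how these genes stood when repair was under way. Here 21 members rose and 0 fell, where 14.8% of all genes rose and 12.1% fell (12.9% and 16.8% after median centring of the arrays). At an unadjusted p under 0.05 there were 26 members, of which Myh7 alone was lower, again without a share of all genes at that threshold. The median log2 change over the members was 0.38, a 1.30-fold rise, against −0.03 over all genes. Both day 4 arrays lay above both intact arrays for 32 members and below them for Myh7 and Myl3, where 30% of all genes lay above and 36% below. By role 4 of 9 fast-fibre, 3 of 7 slow-fibre, 4 of 7 calcium-handling, 3 of 7 Z-disc, 4 of 5 actin, titin, nebulin and M-band and 3 of 4 energy genes rose. The count was 9 in place of 21 without intact skin replicate 1, 8 without intact skin replicate 2 and 12 without day 4 wound replicate 2. The members called in each of the 6 fits that left out 1 array were Myh4, Mybpc2, Tnni1, Tnnc1, Ryr1, Jph1, Des and Myom1.

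The direct comparison of day 4 with day 1 wounds asks which of these genes changed between the days. The slow-fibre troponin genes Tnni1 and Tnnc1 were higher on day 4, and Myh4, Mybpc2, Pvalb and Myoz1 were lower. These are 2 members higher and 4 lower, where 1.09% of all genes were higher and 1.14% lower (0.978% and 1.55% after cyclic loess). The other slow-fibre myofilament genes did not pass. Their log2 changes between the days were 0.27 for Tnnt1, 0.085 for Myl2, −0.02 for Mybpc1, −0.095 for Myl3 and −0.105 for Myh7. At an unadjusted p under 0.05 there were 23 members, of which Tnnt1, Tnni1 and Tnnc1 were higher and the others lower. The percentages of all genes above hold for the adjusted threshold only, and none was taken for the unadjusted one. The median log2 change over the members was −0.27, against 0.01 over all genes. It was −0.12 without day 4 wound replicate 1 and −0.47 without day 4 wound replicate 2. Both day 4 arrays lay below both day 1 arrays for 22 members and above them for 6 (Myl2, Tnnt1, Tnni1, Tnnc1, Tcap and Myom1), where 22% of all genes lay below and 25.6% above. None of these 6 calls was kept in every fit that left out 1 array. Leaving out any array but day 4 wound replicate 2 gave 0 calls, and without that array Tnnc1 was called higher and Pvalb and Trdn lower.

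**Figure D1:**
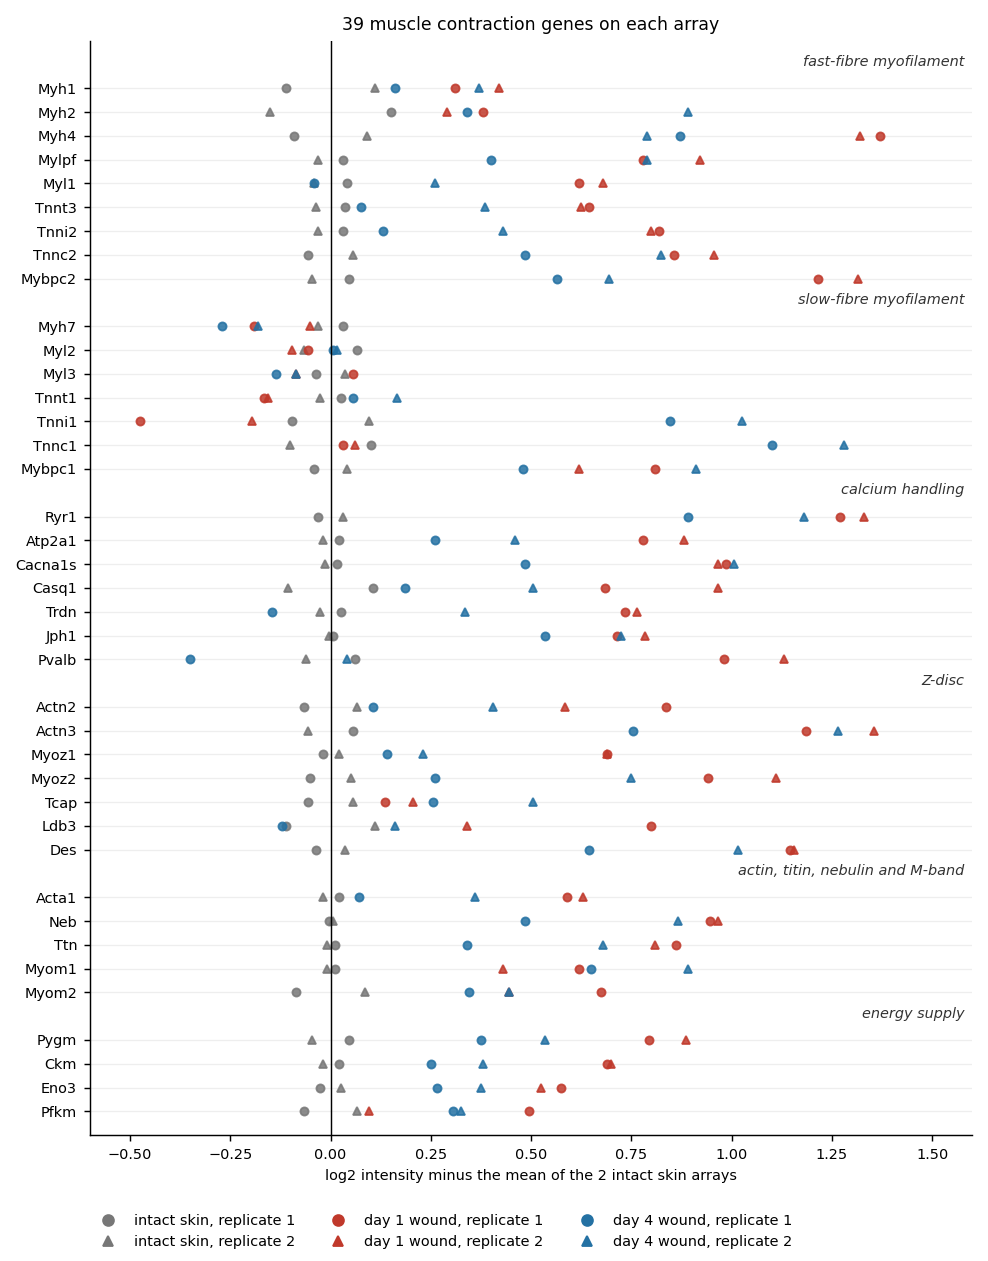
Log2 intensity of the 39 members on each array minus the mean of the 2 intact skin arrays, 1 line per gene, grouped by role, with circles for replicate 1 and triangles for replicate 2. For most fast-fibre and calcium-handling genes the day 1 wounds lie farthest to the right, while Tnni1 and Tnnc1 lie farthest to the right on day 4.

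Fast-fibre myofilament genes had a median log2 change of 0.81 on day 1, 0.60 on day 4 and −0.41 between day 4 and day 1. Myh4, the myosin heavy chain of the fastest (IIb) fibres, had log2 intensities of 9.82 and 10.00 in intact skin, 11.28 and 11.23 on day 1 and 10.78 and 10.70 on day 4. The 3 groups did not overlap, with intact skin lowest and day 1 highest. Myh4 rose 2.54-fold on day 1 (log2 change 1.35, SE 0.09, adjusted p = 2.09e-04) and 1.78-fold on day 4 (log2 change 0.83, adjusted p = 0.00153), and was lower on day 4 than on day 1 (log2 change −0.52, adjusted p = 0.0465). Mybpc2, the fast-fibre myosin-binding protein C that ties and regulates the thick filament, had 8.75 and 8.66 in intact skin, 9.92 and 10.02 on day 1 and 9.27 and 9.40 on day 4. Its order was the same, without overlap. The log2 changes of Mybpc2 were 1.27 on day 1 (SE 0.09, adjusted p = 2.34e-04), 0.63 on day 4 (adjusted p = 0.00345) and −0.64 between the days (adjusted p = 0.0303). Tnnc2, the calcium-binding troponin subunit of fast fibres, had 9.74 and 9.85 in intact skin, 10.65 and 10.75 on day 1 and 10.28 and 10.62 on day 4. Both wound groups lay above intact skin, with log2 changes of 0.91 on day 1 (SE 0.12, adjusted p = 0.00284) and 0.66 on day 4 (adjusted p = 0.0115).

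The other fast-fibre genes that rose on day 1 were the light chains Mylpf (log2 change 0.85, adjusted p = 0.00497) and Myl1 (0.65, adjusted p = 0.00664), the tropomyosin-binding troponin Tnnt3 (0.64, adjusted p = 0.00737) and the inhibitory troponin Tnni2 (0.81, adjusted p = 0.00269). Mylpf also rose on day 4 (0.60, adjusted p = 0.0215), while Myl1 (0.11), Tnnt3 (0.23) and Tnni2 (0.28) did not pass the test there. The day 1 calls of Myl1 and Tnnt3 were lost without intact skin replicate 2 (adjusted p = 0.0514 and 0.0548). The day 4 calls of Tnnc2 and Mylpf were lost without either intact array, and that of Mylpf also without day 4 wound replicate 2 (highest adjusted p = 0.0824 for Tnnc2 and 0.107 for Mylpf). Of the other fast myosin heavy chains, Myh1 (IIx fibres) had 10.68 and 10.90 in intact skin, 11.10 and 11.21 on day 1 and 10.95 and 11.16 on day 4. Myh2 (IIa fibres) had 9.92 and 9.62 in intact skin, 10.15 and 10.06 on day 1 and 10.11 and 10.66 on day 4. For both genes every wound array lay above both intact arrays, but the differences did not pass the test. The log2 change of Myh1 was 0.37 on day 1 (95% interval 0.09 to 0.64, adjusted p = 0.0544) and 0.27 on day 4 (adjusted p = 0.135), and that of Myh2 0.34 on day 1 (interval −0.12 to 0.79, adjusted p = 0.238) and 0.62 on day 4 (adjusted p = 0.0563). Myh1, Myh2 and Myh4 are neighbours of closely similar sequence on chromosome 11, and whether their probe sets tell them apart was not tested.

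Slow-fibre myofilament genes had a median log2 change of −0.08 on day 1, 0.11 on day 4 and 0.09 between the days. Mybpc1, the slow-type myosin-binding protein C, which is also found in fast fibres, had 8.81 and 8.89 in intact skin, 9.66 and 9.47 on day 1 and 9.33 and 9.76 on day 4. Both wound groups lay above intact skin and overlapped each other. Mybpc1 rose 1.64-fold on day 1 (log2 change 0.72, SE 0.15, adjusted p = 0.0139) and 1.62-fold on day 4 (0.70, adjusted p = 0.0178). Its day 1 call was lost without either intact array or without day 1 wound replicate 1, and its day 4 call without either intact array or without day 4 wound replicate 2. The highest of these adjusted p-values were 0.0897 on day 1 and 0.107 on day 4.

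Tnni1, the inhibitory troponin of slow fibres, had 6.71 and 6.90 in intact skin, 6.33 and 6.61 on day 1 and 7.65 and 7.83 on day 4. Day 4 wounds were highest and day 1 wounds lowest, without overlap. Its log2 change was −0.34 on day 1, which did not pass (SE 0.13, adjusted p = 0.0971), 0.94 on day 4 (SE 0.13, adjusted p = 0.00343) and 1.27 between the days (2.41-fold, adjusted p = 0.0156). Tnnc1, the calcium-binding troponin shared by slow fibres and heart, had 5.95 and 5.75 in intact skin, 5.88 and 5.91 on day 1 and 6.95 and 7.13 on day 4. Intact skin and day 1 wounds overlapped, and both day 4 arrays lay above them. Tnnc1 rose 2.28-fold on day 4 (log2 change 1.19, SE 0.10, adjusted p = 7.53e-04) and was 2.21-fold higher on day 4 than on day 1 (log2 change 1.15, adjusted p = 0.0125), with 0.05 on day 1 (adjusted p = 0.777). Lower quartiles over all genes lay between 5.77 and 5.88 on the 6 arrays, and signal was not tested against background there, so the folds of Tnnc1 are approximate.

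The other slow-fibre genes did not pass the test in any of the 3 comparisons. Tnnt1, the tropomyosin-binding troponin of slow fibres, had 5.85 and 5.80 in intact skin, 5.66 and 5.67 on day 1 and 5.88 and 5.99 on day 4, with log2 changes of −0.16 on day 1 (95% interval −0.34 to 0.02) and 0.11 on day 4. Its day 1 arrays were lowest and its day 4 arrays highest, without overlap. Myh7, the slow myosin heavy chain, had 6.27 and 6.21 in intact skin, 6.05 and 6.19 on day 1 and 5.97 and 6.06 on day 4. Both wound groups lay under intact skin, by −0.12 on day 1 (interval −0.32 to 0.08) and −0.23 on day 4 (interval −0.43 to −0.02, adjusted p = 0.0973). The regulatory light chain Myl2 had 5.35 and 5.22 in intact skin, 5.23 and 5.19 on day 1 and 5.29 and 5.30 on day 4. The essential light chain Myl3 had 6.35 and 6.42 in intact skin, 6.44 and 6.30 on day 1 and 6.25 and 6.30 on day 4. In both light chain genes the day 1 arrays overlapped with intact skin, with log2 changes of −0.08 for Myl2 (interval −0.26 to 0.11) and −0.02 for Myl3 (interval −0.21 to 0.18). Over the 6 arrays the means of Myl2 and Tnnt1 lay under 5.88, the highest lower quartile of an array.

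**Figure D2:**
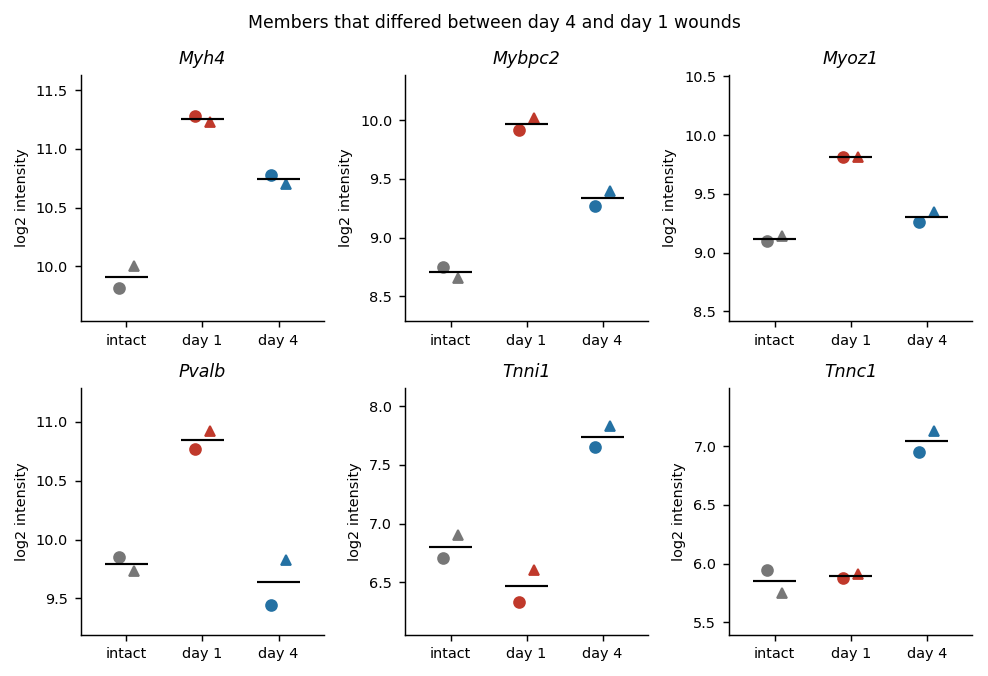
Log2 intensity of the 6 members that differed between day 4 and day 1 wounds, 1 panel per gene, with circles for replicate 1, triangles for replicate 2 and a bar for the mean of 2 arrays. Each panel spans the same range of log2 units. Myh4, Mybpc2, Myoz1 and Pvalb are highest on day 1, and Tnni1 and Tnnc1 on day 4.

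All 7 calcium-handling genes rose on day 1, with a median log2 change of 0.83, and 4 rose on day 4, where the median was 0.36. Ryr1, the channel that releases calcium from the sarcoplasmic reticulum, had 8.59 and 8.65 in intact skin, 9.89 and 9.95 on day 1 and 9.51 and 9.80 on day 4. Intact skin was lowest and day 1 highest, without overlap. Ryr1 rose 2.46-fold on day 1 (log2 change 1.30, SE 0.11, adjusted p = 4.71e-04) and 2.05-fold on day 4 (1.04, adjusted p = 0.00144). Cacna1s, the voltage sensor in the transverse tubule that opens Ryr1, had 8.05 and 8.02 in intact skin, 9.02 and 9.0 on day 1 and 8.52 and 9.04 on day 4. Both wound groups lay above intact skin, and 1 day 4 array reached above both day 1 arrays. The log2 change of Cacna1s was 0.98 on day 1 (SE 0.16, adjusted p = 0.00568) and 0.75 on day 4 (adjusted p = 0.0179), a call that was lost without either intact array (highest adjusted p = 0.0936).

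Pvalb, the soluble calcium buffer parvalbumin of fast fibres, had 9.85 and 9.73 in intact skin, 10.77 and 10.92 on day 1 and 9.44 and 9.83 on day 4. Day 1 wounds lay apart above the other groups, and day 4 wounds overlapped with intact skin. Pvalb rose 2.08-fold on day 1 (log2 change 1.06, SE 0.14, adjusted p = 0.00245) and had −0.16 on day 4 (adjusted p = 0.450). It was 2.31-fold lower on day 4 than on day 1 (log2 change −1.21, adjusted p = 0.0223). The calcium pump Atp2a1 of fast fibres rose on both days (0.83, adjusted p = 0.00131, and 0.36, adjusted p = 0.0323), as did Jph1, which joins the reticulum to the transverse tubule (0.75, adjusted p = 0.00162, and 0.63, adjusted p = 0.00386). The day 4 call of Atp2a1 was lost without any 1 array other than day 4 wound replicate 1 (highest adjusted p = 0.136). Casq1, the calcium-storage protein calsequestrin of fast fibres, rose on day 1 (0.83, adjusted p = 0.00806) and had 0.35 on day 4 (adjusted p = 0.138). Its day 1 call was lost without intact skin replicate 2 or day 1 wound replicate 2 (highest adjusted p = 0.0602).

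Trdn encodes triadin, which anchors calsequestrin at Ryr1, and was the member with the most probe sets. The brightest had 0.75 on day 1 (adjusted p = 0.0121) and 0.10 on day 4 (adjusted p = 0.680). Its day 1 call was lost when either intact array or either day 1 array was left out (highest adjusted p = 0.0745). All 19 Trdn probe sets were higher on day 1 than in intact skin, with log2 changes of 0.28 to 1.54 and a median of 0.89. Both ends of this range came from dim probe sets, with means of 2.79 and 4.70 over the 6 arrays. Lower quartiles over all probe sets lay between 5.29 and 5.37, and signal was not tested against background there. On day 4, 13 of the 19 were higher than in intact skin, with log2 changes of −0.25 to 0.90, and all 19 were lower than on day 1. The probe sets share the same arrays and are not replicates. Jph1 had 2 probe sets, both higher on day 1 (0.25 and 0.75) and on day 4 (0.10 and 0.63).

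Z-disc genes had a median log2 change of 0.71 on day 1, 0.38 on day 4 and −0.46 between the days. Actn3, the alpha-actinin that crosslinks actin in the Z-discs of fast fibres, had 8.78 and 8.67 in intact skin, 9.91 and 10.08 on day 1 and 9.48 and 9.99 on day 4. Both wound groups lay above intact skin and overlapped each other. Actn3 rose 2.41-fold on day 1 (log2 change 1.27, SE 0.17, adjusted p = 0.00246) and 2.01-fold on day 4 (1.01, adjusted p = 0.00718), a call lost without intact skin replicate 2 (adjusted p = 0.0552). Des, the intermediate filament desmin that links neighbouring Z-discs, had 10.27 and 10.34 in intact skin, 11.45 and 11.46 on day 1 and 10.95 and 11.32 on day 4. The groups did not overlap, and Des rose 2.22-fold on day 1 (log2 change 1.15, SE 0.13, adjusted p = 0.00119) and 1.78-fold on day 4 (0.83, adjusted p = 0.00504). Desmin is also made in smooth muscle. Myoz2, the Z-disc protein calsarcin of slow fibres and heart, had 8.13 and 8.23 in intact skin, 9.12 and 9.29 on day 1 and 8.44 and 8.93 on day 4. Day 4 arrays lay between the other groups, with log2 changes of 1.03 on day 1 (SE 0.16, adjusted p = 0.00490) and 0.51 on day 4, which did not pass (adjusted p = 0.0640).

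Myoz1, the calsarcin of fast fibres, had 9.10 and 9.14 in intact skin, 9.81 on both day 1 arrays and 9.26 and 9.35 on day 4. Day 1 wounds lay apart above the other groups. The log2 changes of Myoz1 were 0.69 on day 1 (SE 0.07, adjusted p = 0.00109), 0.19 on day 4 (adjusted p = 0.113) and −0.51 between the days (adjusted p = 0.0361). Actn2, the alpha-actinin of all fibre types, rose on day 1 (0.71, adjusted p = 0.00935) and had 0.26 on day 4 (adjusted p = 0.208). Its day 1 call was lost without intact skin replicate 1 or day 1 wound replicate 1 (highest adjusted p = 0.0708). Tcap, the cap of titin at the Z-disc, had 7.07 and 7.18 in intact skin, 7.26 and 7.33 on day 1 and 7.38 and 7.63 on day 4. The groups did not overlap and day 4 was highest, with log2 changes of 0.17 on day 1 (interval −0.08 to 0.42, adjusted p = 0.271) and 0.38 on day 4 (adjusted p = 0.0391). The day 4 call of Tcap was lost without any 1 array other than day 4 wound replicate 1 (highest adjusted p = 0.190). Ldb3, the scaffold that holds alpha-actinin, had 8.67 and 8.89 in intact skin, 9.58 and 9.12 on day 1 and 8.66 and 8.94 on day 4. Day 1 arrays were highest but far from each other, and the log2 change of 0.57 on day 1 did not pass (SE 0.18, adjusted p = 0.0541), nor did that of 0.02 on day 4.

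Genes for actin, titin, nebulin and the M-band rose on day 1 in 5 of 5 cases, with a median log2 change of 0.61, and had a median of 0.51 on day 4. Neb, the giant protein that runs along the thin filament, had 10.58 and 10.59 in intact skin, 11.53 and 11.55 on day 1 and 11.07 and 11.45 on day 4. Ttn, the titin spring that spans the sarcomere from Z-disc to M-band, had 10.70 and 10.68 in intact skin, 11.55 and 11.50 on day 1 and 11.03 and 11.37 on day 4. Acta1, the skeletal muscle actin, had 11.86 and 11.82 in intact skin, 12.43 and 12.47 on day 1 and 11.91 and 12.20 on day 4. In each of these 3 genes the groups did not overlap, with intact skin lowest and day 1 highest. The log2 changes of Neb were 0.96 on day 1 (SE 0.13, adjusted p = 0.00247) and 0.68 on day 4 (adjusted p = 0.0110), and those of Ttn 0.84 (SE 0.12, adjusted p = 0.00316) and 0.51 (adjusted p = 0.0226). Acta1 rose on day 1 (0.61, SE 0.11, adjusted p = 0.00721) and had 0.22 on day 4 (adjusted p = 0.187). The day 1 call of Acta1 was lost without intact skin replicate 2 or day 1 wound replicate 2 (highest adjusted p = 0.0522). The day 4 calls of Neb and Ttn were lost without either intact array, and that of Ttn also without day 4 wound replicate 2 (highest adjusted p = 0.0722 for Neb and 0.107 for Ttn). The M-band proteins, which crosslink thick filaments in the middle of the sarcomere, rose on both days: Myom1 by 0.53 (adjusted p = 0.0137) and 0.77 (adjusted p = 0.00404), and Myom2 by 0.56 (adjusted p = 0.0104) and 0.40 (adjusted p = 0.0395). The day 1 call of Myom1 was lost without either intact array or day 1 wound replicate 1 (highest adjusted p = 0.0769). For Myom2 the day 1 call was lost without intact skin replicate 1 (adjusted p = 0.0750) and the day 4 call without either intact or either day 4 array (highest adjusted p = 0.200).

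Of the 4 energy genes 3 rose on day 1 and 3 on day 4, with median log2 changes of 0.62 and 0.32. Pygm, the muscle glycogen phosphorylase, had 10.49 and 10.40 in intact skin, 11.24 and 11.33 on day 1 and 10.82 and 10.98 on day 4. Ckm, the muscle creatine kinase that refills ATP from phosphocreatine, had 11.23 and 11.19 in intact skin, 11.90 and 11.91 on day 1 and 11.46 and 11.59 on day 4. Eno3, the muscle enolase of glycolysis, had 10.79 and 10.84 in intact skin, 11.39 and 11.34 on day 1 and 11.08 and 11.19 on day 4. All 3 were lowest in intact skin and highest on day 1, without overlap. Their log2 changes on day 1 were 0.84 for Pygm (SE 0.09, adjusted p = 0.00108), 0.70 for Ckm (SE 0.08, adjusted p = 0.00132) and 0.55 for Eno3 (SE 0.08, adjusted p = 0.0031). On day 4 they were 0.46 for Pygm (adjusted p = 0.0127), 0.32 for Ckm (adjusted p = 0.0282) and 0.32 for Eno3 (adjusted p = 0.0260). The 3 day 4 calls were lost without either intact array or day 4 wound replicate 2 (highest adjusted p = 0.134, for Eno3). Pfkm, the muscle phosphofructokinase, had 9.29 and 9.42 in intact skin, 9.85 and 9.45 on day 1 and 9.66 and 9.68 on day 4. Every wound array lay above both intact arrays, but the log2 changes of 0.30 on day 1 (interval −0.03 to 0.62, adjusted p = 0.157) and 0.32 on day 4 (adjusted p = 0.138) did not pass.

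Fast-fibre genes were set beside the slow-fibre gene for the same filament part, without a test of the difference. Of these partners Actn2 belongs to all fibre types, and Mybpc1 is also found in fast fibres. On day 1 the fast and slow log2 changes were 1.35 for Myh4 and −0.12 for Myh7, 0.85 for Mylpf and −0.08 for Myl2, and 0.65 for Myl1 and −0.02 for Myl3. For the troponins they were 0.64 for Tnnt3 and −0.16 for Tnnt1, 0.81 for Tnni2 and −0.34 for Tnni1, and 0.91 for Tnnc2 and 0.05 for Tnnc1. In these 6 pairs the fast gene rose on day 1 and the slow one did not pass the test. The 6 slow genes were dim, with intact skin means from 5.29 (Myl2) to 6.81 (Tnni1). The lowest array median over genes was 7.31, and their fast partners had means from 8.04 (Mylpf) to 11.75 (Myl1). Whether low signal hid a change in these slow genes was not tested. In the other pairs the log2 changes were 1.27 for Mybpc2 and 0.72 for Mybpc1, and 1.27 for Actn3 and 0.71 for Actn2. They were 0.69 for Myoz1 and 1.03 for Myoz2, and all of these passed the test. The intact means of Mybpc1, Actn2 and Myoz2 were 8.85, 10.27 and 8.18. On day 4 the slow gene had the higher value in the pairs of Tnni2 (0.28) with Tnni1 (0.94), Tnnc2 (0.66) with Tnnc1 (1.19), Mybpc2 (0.63) with Mybpc1 (0.70) and Myoz1 (0.19) with Myoz2 (0.51). The fast gene had the higher value in those of Myh4 (0.83) with Myh7 (−0.23), Mylpf (0.60) with Myl2 (0.01), Myl1 (0.11) with Myl3 (−0.11), Tnnt3 (0.23) with Tnnt1 (0.11) and Actn3 (1.01) with Actn2 (0.26). The 2 wound days share their intact arrays, so their changes from intact skin are not independent of each other.

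**Figure D3:**
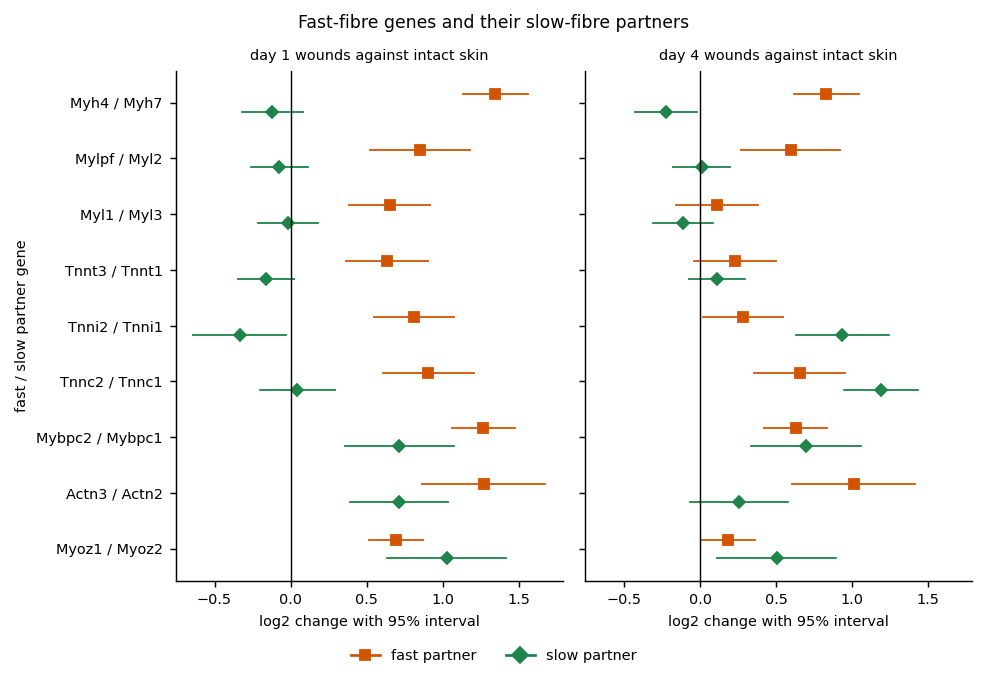
Log2 change (x axis, with 95% intervals) of fast-fibre genes (squares) and their slow-fibre or general partners (diamonds) on day 1 (left) and day 4 (right), each against intact skin. On day 1 the 6 upper slow partners lie between −0.34 and 0.05 and their fast partners between 0.64 and 1.35. On day 4 Tnni1 (0.94) and Tnnc1 (1.19) lie to the right of Tnni2 (0.28) and Tnnc2 (0.66). The 6 upper slow partners had intact skin means of 5.29 to 6.81 log2 units, and their signal was not tested against background.

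Muscle genes outside the 39 were read from 3 lists chosen with earlier results of these data known. On day 1, 48 of their 69 measured genes rose and 2 fell, with a median log2 change of 0.62. On day 4, 26 rose and 3 fell, with a median of 0.32, and between the days 1 was higher and 5 were lower. Of 26 other sarcomere genes 19 rose on day 1 and 11 on day 4. Klhl40, a stabiliser of thin filament proteins, had 6.30 and 6.37 in intact skin, 8.26 and 8.17 on day 1 and 6.83 and 6.87 on day 4. Klhl40 was highest on day 1 without overlap (log2 change 1.88, adjusted p = 4.91e-05), with 0.52 on day 4 (adjusted p = 0.00461) and −1.37 between the days (adjusted p = 0.00485). The thin filament cap Tmod4 (1.21), the Klhl40 relative Klhl41 (1.29) and the Z-disc protein Mypn (1.19) also rose on day 1. Tpm1, a tropomyosin that is also made outside skeletal muscle, fell on both days (−0.50, adjusted p = 0.0222, and −0.55, adjusted p = 0.0173).

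Of 25 other genes of the triad and fibre membrane 15 rose and 0 fell on day 1, and 13 rose and 1 fell on day 4. The smallest p-values on day 1 belonged to Dysf, the membrane repair protein dysferlin (log2 change 1.49), Asb5 (1.84), Srl, a calcium-binding protein of the reticulum (0.74), and Cacng1, a subunit of the voltage sensor (1.63). Of 18 other genes of muscle metabolism 14 rose and 1 fell on day 1, whereas 2 rose and 1 fell on day 4 and 3 were lower on day 4 than on day 1. The median log2 change of this list was 0.70 on day 1, 0.18 on day 4 and −0.52 between the days. Its smallest p-values on day 1 belonged to the phosphorylase kinase subunit Phka1 (0.80), the muscle cytochrome oxidase subunit Cox8b (0.88), the glycogen synthase Gys1 (0.78) and the fatty acid binding protein Fabp3 (0.59). Cox8b, Gys1 and Fabp3 were also lower on day 4 than on day 1 (log2 changes −0.69, −0.51 and −0.61). Ppargc1a, a coactivator of mitochondrial genes, fell on both days (−0.98, adjusted p = 0.0100, and −1.30, adjusted p = 0.00424).

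Genes of embryonic and regenerating muscle, a list of 13, rose in 4 cases on day 1 and in 11 on day 4, and 5 were higher on day 4 than on day 1. Their median log2 change was 0.19 on day 1, 1.02 on day 4 and 0.81 between the days. Actc1, the cardiac actin that developing skeletal muscle also makes, had 7.36 and 7.13 in intact skin, 7.47 and 7.55 on day 1 and 9.53 and 9.98 on day 4. Myl4, the embryonic light chain, had 8.27 and 8.06 in intact skin, 9.60 and 9.51 on day 1 and 10.50 and 11.14 on day 4. Both were highest on day 4 without overlap, with log2 changes of 2.51 for Actc1 (adjusted p = 3.00e-04) and 2.66 for Myl4 (adjusted p = 5.06e-04) against intact skin. Day 4 replicate 2 was the higher array for both, as for 38 of the 39 members. Myf6, of the same list, had 6.96 and 7.25 in intact skin, 9.95 and 10.33 on day 1 and 8.24 and 9.35 on day 4. It had the largest day 1 rise of the list (log2 change 3.04, adjusted p = 0.00139) and 1.69 on day 4 (adjusted p = 0.0148). Its change between the days was the lowest of the list (−1.35) and did not pass (adjusted p = 0.108). Of 8 satellite cell markers 2 rose and 1 fell on day 1, and 1 rose and 2 fell on day 4.

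**Figure D4:**
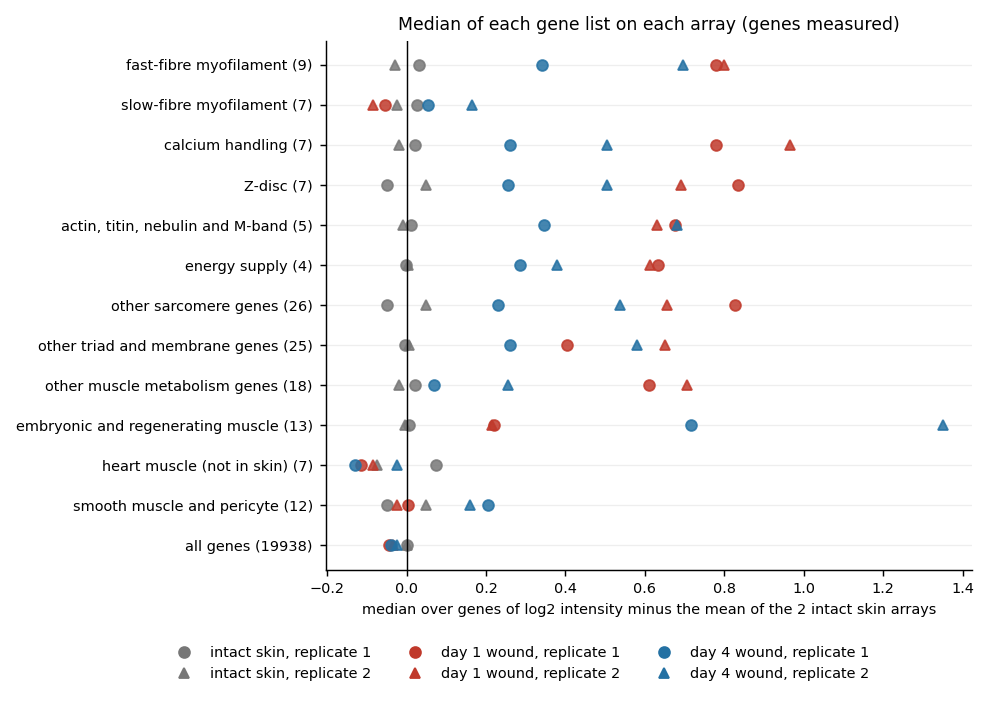
Median over the genes of each list of the log2 intensity minus the mean of the 2 intact skin arrays, 1 point per array, with the number of genes measured in brackets. The slow-fibre, heart, smooth muscle and all-gene medians stay within 0.21 log2 units of intact skin on every array, and the embryonic list is highest on the 2 day 4 arrays (0.72 and 1.35).

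Markers of other cells in the biopsy also changed, and their part in the members' values was not tested. Markers of heart muscle, a tissue that skin lacks, had a summed intensity of 527 to 565 in intact skin. The sum was 599 to 610 on day 1 and 545 to 562 on day 4. Of these 7 markers Nppb alone rose on day 1 and none on day 4. Smooth muscle and pericyte genes had sums of 5932.9 and 6478.5 in intact skin, 5047.6 and 4946 on day 1 and 6088.1 and 5837.7 on day 4. Of these 12 genes 1 rose and 3 fell on day 1, and 3 rose and 2 fell on day 4, while Myh11 and Acta2, the myosin and actin of smooth muscle, had log2 changes of 0.08 and −0.02 on day 1. Neutrophil and macrophage markers rose in 10 of 10 cases each on both days, with median log2 changes of 4.65 and 1.99 on day 1. Hair follicle genes fell in 8 of 12 cases on day 1 and 5 of 12 on day 4. Keratinocyte markers rose in 5 of 8 cases on each day, and fibroblast markers in 5 of 10 on day 1 and 6 of 10 on day 4, with 1 fall each. Endothelial markers rose in 7 of 10 cases on day 1 and 8 of 10 on day 4. Of 9 adipocyte markers, whose cells lie beside the muscle sheet, 1 rose and 3 fell on day 1 and 0 rose and 3 fell on day 4.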

How the data were processed

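Log2 intensities per probe set were deposited for 6 arrays and, per the submitters' processing notes, made with RMA, which corrects background, normalises the arrays and summarises probes. No version of RMA is stated there. Of 35556 probe sets, 21789 had 1 symbol in the array annotation, 1621 with several were not used, and 12146 had no annotation entry. The brightest probe set stood for each of 999 genes with more than 1, which gave 19938 genes. Symbols were checked against RefSeq (GRCm38.p6), and 0 of the 21698 identifiers found there carried another symbol.

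From the deposited log2 values limma 3.58.1 (R 4.3.3) fitted a mean per group over all 6 arrays (residual degrees of freedom 3, prior 3.40). Each of 3 contrasts was tested two-sided, with Benjamini-Hochberg adjustment over all genes and a threshold of 0.05. "Rose", "fell", "higher" and "lower" with a count refer to this test. Precision is limited by having 2 arrays per group. The fit was tested on simulated data with noise independent between arrays, for day 1 wounds against intact skin only. Figures and promoter matches were made in Python 3.11.15.

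The members, the lists of other genes and the comparisons were chosen with earlier results of these data known. Values on all arrays are given for the 3 members of each role with the largest day 1 change, for members that did not pass on day 1 and for those that differed between the days. From the other muscle lists up to 4 genes with the smallest day 1 p and up to 2 that moved the other way are named. From other lists up to 2 are named. Myf6, Casq2 and Myh3 were named in addition, after their values were seen. Alternatives were 3 other normalizations, a variance trend, a robust prior, fits of 2 groups only, removal of the dimmest 30% of genes, the mean of a gene's probe sets, tests of all probe sets, the replicate number as a block and each array left out.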

Additional observations from a re-analysis of the deposited data

Results flagged for a closer look

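For 6 members the change of wounds from intact skin differed between day 4 and day 1 by the direct limma test (adjusted p under 0.05). The day 4 change minus the day 1 change was 1.27 for Tnni1 and 1.15 for Tnnc1, and both genes had both day 4 arrays above both day 1 arrays. It was −1.21 for Pvalb, −0.64 for Mybpc2, −0.52 for Myh4 and −0.51 for Myoz1, and each had both day 4 arrays below both day 1 arrays. The intact arrays cancel in this difference. None of the 6 calls was kept in every fit that left out 1 array, and none was kept in all 10 other settings. The direction of each difference was the same in all of these fits. With 2 arrays a group no array was tested as an outlier.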

How the results depend on the processing

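Each group had 2 arrays, and probe sets near the lower quartile, such as Myl2, Tnnt1 and Tnnc1, were not tested against background. All 28 day 1 calls were kept in the 10 settings that did not leave out a single array, and 19 in all 6 fits without 1 array. Of the 21 day 4 calls 17 and 8 were kept, and of the 6 calls between the days 0 and 0. The median day 1 change of 0.71 was 0.68 after cyclic loess, 0.69 after median centring, 0.73 without the dimmest 30% of genes and 0.69 to 0.72 with 1 array left out. The day 4 count of 21 ranged from 8 to 25 with 1 array left out. Between day 4 and day 1, 2 members higher and 4 lower became 0 and 0 with only the 2 groups compared or with all probe sets tested, 8 lower with a mean-variance trend, and 0 to 1 higher and 0 to 2 lower with 1 array left out. The fits that leave out an array or a group have fewer degrees of freedom, and that of all probe sets adjusts over 35556 tests. Deviations from the group means of arrays with the same replicate number correlated at 0.6853 between day 1 and day 4 wounds, at 0.0139 between day 1 wounds and intact skin and at 0.0227 between day 4 wounds and intact skin. The labels do not say what a number marks, and over the 3 groups the numbers were not taken to pair the samples. Whether the wound arrays share a batch was not tested. With the replicate block 1 member, Tnni1, was called lower on day 1 (0 without the block). The other counts moved by less than 1.5 times. The sign turned for 22 values, none past the test in any of these settings, and the cause was not tested. With 1 array left out, the lowest and highest values on day 1 were −0.085 and 0.055 for Myl3 and −0.055 and 0.145 for Tnnc1. On day 4 they were −0.12 and 0.16 for Ldb3, −0.055 and 0.075 for Myl2, −0.35 and 0.04 for Pvalb, −0.04 and 0.26 for Myl1 and −0.145 and 0.335 for Trdn. Between the days they were −0.18 and 0.22 for Pfkm, −0.235 and 0.195 for Mybpc1, −0.49 and 0.03 for Cacna1s and −0.205 and 0.005 for Myh1. Under other scalings Myl3 on day 1 became 0.0092 (quantile) and 0.071 (cyclic loess). Ldb3 on day 4 became −0.04 (quantile), −0.0064 (cyclic loess) and −0.035 (median centring), and Myl2 −0.045 (median centring). Pfkm between the days became −0.0039 (cyclic loess) and −0.01 (median centring).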

Other observations

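Casq2, the calsequestrin of slow fibres and heart, went the way of the slow troponins Tnni1 and Tnnc1 and was named after its values were seen. Of the 25 other triad and membrane genes it was the only 1 higher on day 4 than on day 1, and 1 was lower. The median log2 change of that list between the days was −0.215. Casq2 had 5.80 and 5.74 in intact skin, 5.67 and 5.52 on day 1 and 6.53 and 6.67 on day 4. Both day 4 arrays were highest and both day 1 arrays lowest. Its log2 change in the limma fit was −0.18 on day 1, 0.83 on day 4 and 1.01 between day 4 and day 1 (adjusted p = 0.0125 for the difference between the days). Myh3, the embryonic myosin heavy chain, also chosen after its values were seen, had 5.23 and 5.41 in intact skin, 5.22 and 5.34 on day 1 and 7.35 and 7.95 on day 4. Intact skin and day 1 overlapped, and both day 4 arrays lay above, with a log2 change of 2.33 on day 4 against intact skin (adjusted p = 6.64e-04). The intact and day 1 values of both genes lay near or under the lower quartile of all genes, where signal was not tested against background.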
